A study of Homo sapiens with 6 samples.

Results

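The miR-29 family of human miRNAs consists of miR-29a, miR-29b and miR-29c, which are made from 4 hairpins in 2 genomic clusters. Its members were taken by name from a table of 1000 mature miRNAs, and 5 rows were selected, namely hsa-miR-29a-3p, hsa-miR-29a-5p, hsa-miR-29b-3p, hsa-miR-29c-3p and hsa-miR-29c-5p, written below without the species prefix. The 2 remaining arms of the family in the table, miR-29b-1-5p and miR-29b-2-5p, are set beside them because each comes from 1 cluster only. Small RNA was sequenced from HEK 293T, an established line derived from human embryonic kidney, in 3 replicates labelled biological of the ΔTUT4/7 strain and 3 of the wild type strain. ΔTUT4/7 cells lack both TUT4 (TENT3A) and TUT7 (TENT3B), the terminal uridylyltransferases that add uridines to the 3′ ends of RNAs, and neither strain received a treatment. The study asked how far these enzymes set the abundance of miRNAs. All ΔTUT4/7 libraries come from 1 double knockout strain obtained from another laboratory, so any other difference between the strains is part of each fold change. mRNAs were not analysed here, so the loss of the targeted genes was not checked.

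miRNAs pair with target mRNAs mainly through the seed, bases 2 to 8 from the 5′ end, and lower their translation and stability. Each hairpin can yield a 5p and a 3p arm, of which 1 is usually loaded into Argonaute and kept while the other is degraded. In the miR-29 family the 3p arm is the guide. miR-29 is known as a repressor of collagens and other extracellular matrix genes, of the DNA methyltransferases DNMT3A and DNMT3B, and of the survival factor MCL1. Its members are often treated as interchangeable since they share a seed. TUT4 and TUT7 are best known in this field for uridylating let-7 precursors, and no miR-29 hairpin is on the study's list of group II precursors, whose maturation involves the addition of 1 nucleotide.

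The mature sequences of the 3p arms show what the members share and how little tells their reads apart. They are given from RefSeq (GRCh38.p14), 5′ to 3′, with the seed in capitals.
miR-29a-3p: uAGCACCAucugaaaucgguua
miR-29b-3p: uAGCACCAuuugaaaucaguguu
miR-29c-3p: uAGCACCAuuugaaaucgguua
Of the 897 arms in the table with a sequence in RefSeq, these 3 (0.334%) carry AGCACCA at bases 2 to 8. miR-29a-3p and miR-29c-3p differ at a single position, C10U, counted from the 5′ end with the base of miR-29a-3p first. miR-29c-3p and miR-29b-3p differ by G18A, U21G and A22U, written with the base of miR-29c-3p first. The authors trimmed the reads to 18 nt, and within that length each of the pairs miR-29a-3p with miR-29c-3p and miR-29c-3p with miR-29b-3p differs by 1 base, and miR-29a-3p with miR-29b-3p by 2. The mismatches allowed in alignment are not given in the sources used here. miR-29b-3p is the 1 arm of the 897 that ends in AGUGUU, a 3′ motif known from earlier work to favour nuclear import.

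The hairpins are shown because the 5p arms and the surrounding bases are what distinguish the clusters. Both mature arms are in capitals, 5′ to 3′.
MIR29B1: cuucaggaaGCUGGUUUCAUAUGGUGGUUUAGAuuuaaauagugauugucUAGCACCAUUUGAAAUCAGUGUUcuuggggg
MIR29A: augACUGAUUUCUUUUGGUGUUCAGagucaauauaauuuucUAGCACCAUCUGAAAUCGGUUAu
MIR29B2: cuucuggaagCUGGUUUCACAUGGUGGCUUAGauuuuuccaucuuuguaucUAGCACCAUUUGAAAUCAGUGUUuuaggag
MIR29C: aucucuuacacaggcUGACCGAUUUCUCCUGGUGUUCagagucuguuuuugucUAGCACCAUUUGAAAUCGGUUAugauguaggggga
In hg38 the chromosome 7 cluster holds MIR29B1 (chr7:130877459-130877539) and MIR29A (chr7:130876747-130876810) on the minus strand, 648 bases apart. In GENCODE release 44, MIR29B1 lies wholly inside 1 annotated exon of the long noncoding RNA LINC-PINT, and MIR29A overlaps an exon of it in part. The noncoding gene LINC00513 runs over both on the opposite strand, with no exon there. The chromosome 1 cluster holds MIR29B2 (chr1:207802443-207802523) and MIR29C (chr1:207801852-207801939), also on the minus strand and 503 bases apart, both inside an exon of the noncoding host gene MIR29B2CHG. The mature miR-29b-3p sequence is identical in MIR29B1 and MIR29B2. The table holds it once, under the chromosome 1 position, so its counts cannot be divided between the clusters. Whether reads placed at the chromosome 7 copy of miR-29b-3p were counted is not stated in the sources used here, so its level may be a part of the total. The other 6 arms each come from 1 cluster. The 5p arms differ more than the 3p arms: the first 18 bases of miR-29a-5p and of miR-29c-5p have at least 3 mismatches anywhere in the other hairpins. The first 18 bases of miR-29b-1-5p match MIR29B2 with 1 mismatch, and those of miR-29b-2-5p match MIR29B1 with 2.

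**Figure D1:**
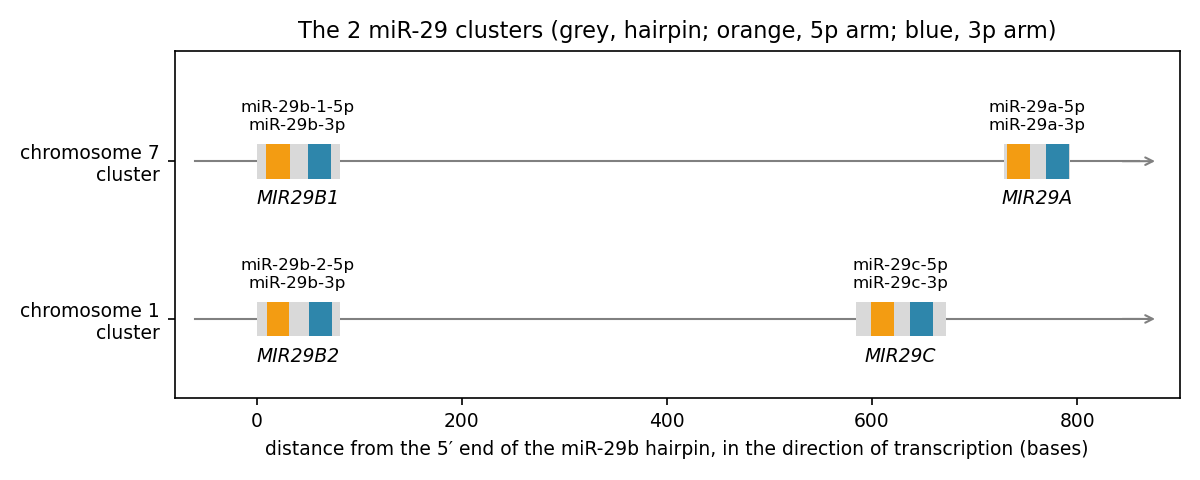
Map of the miR-29 clusters drawn to scale, with distance in bases from the 5′ end of the miR-29b hairpin along the direction of transcription, grey boxes for hairpins, orange for 5p arms and blue for 3p arms. In both clusters the miR-29b hairpin comes first, and the gap to the next hairpin is 648 bases on chromosome 7 and 503 bases on chromosome 1.

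The libraries held 4338558 to 7967606 counts. Values are CPM of the library total, and since all reads had the same length no correction for length applies. Let-7 family and miR-98 arms took 19.2% to 19.7% of the ΔTUT4/7 counts and 5.57% to 6.36% of the wild type counts, so the CPM of every other miRNA is scaled by different remainders. Wild type replicate 3 stood furthest from its group, with a median distance of 0.29 on the log2 scale from the mean of the other wild type libraries over miRNAs above 10 CPM, against 0.23 and 0.19 for wild type replicates 1 and 2 and 0.076 to 0.16 for the ΔTUT4/7 libraries. Of 11 markers of liver, muscle, neurons, blood, endothelium and fibroblasts, 8 were below 10 CPM in every library or not in the table. The exceptions were miR-126-3p, known from endothelium, at 3831 to 3938 CPM in ΔTUT4/7 and 2799 to 3614 CPM in wild type cells, miR-142-3p, known from blood cells, at 30.9 to 36.3 and 49.5 to 96.3 CPM, and miR-143-3p, known from smooth muscle, with highest values of 2.76 and 13.1 CPM. The kidney epithelial markers miR-192-5p, miR-194-5p and miR-204-5p were all present, and 2 of the 3 fell in ΔTUT4/7 cells, where 21.9% of all tested miRNAs fell. miR-192-5p, the most abundant, had 2043 to 2302 CPM in ΔTUT4/7 and 2062 to 2103 CPM in wild type libraries (log2 fold change 0.062, edgeR adjusted p = 0.707). miR-194-5p fell from 508 to 690 CPM in wild type to 375 to 383 CPM in ΔTUT4/7 libraries (-0.61, edgeR adjusted p = 0.00743), and miR-204-5p from 81.0 to 100.3 CPM to 11.9 to 16.4 CPM (-2.63, edgeR adjusted p = 8.46e-07). The part of these markers in the results was not tested.

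All 5 members passed the limit of a count above 7 in at least 1 library, as did 826 miRNAs in all, and the strains were compared by the quasi-likelihood test of edgeR with Benjamini-Hochberg adjustment. Both miR-29c arms rose in ΔTUT4/7 cells, miR-29c-3p by 1.92-fold and miR-29c-5p by 1.68-fold, while miR-29a-3p, miR-29a-5p and miR-29b-3p did not pass the test. That is 2 of 5 members with an adjusted p under 0.05 and a higher level in ΔTUT4/7 cells, where 23.2% of all tested miRNAs passed in that direction and 45.2% in either direction. The median log2 fold change of the 5 members was 0.32, beside 0.013 for all tested miRNAs. Over all 7 arms, the 3 made only on chromosome 1 rose and the 3 made only on chromosome 7 did not pass the test. A difference between the clusters was examined with the ratios within libraries given further on.

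miR-29c-3p, the guide arm of the miR-29c hairpin on chromosome 1, had 3742, 3496 and 3240 CPM in ΔTUT4/7 replicates 1, 2 and 3. In wild type replicates 1, 2 and 3 it had 1893, 1979 and 1579 CPM. All ΔTUT4/7 libraries thus lay above all wild type libraries, which was the case for 28.8% of the tested miRNAs, while 29.5% lay wholly below and 58.4% were separated in either direction. Means and SDs over 3 libraries were 3493 ± 251 CPM for ΔTUT4/7 and 1817 ± 211 CPM for wild type. The log2 fold change was 0.94 (SE 0.13, 95% interval 0.65 to 1.24, edgeR adjusted p = 1.61e-04). Its rank among the 1000 miRNAs was 44 in ΔTUT4/7 and 59 in wild type cells. The increase remained just under the 2-fold limit of the study and passed it once let-7 and miR-98 were removed from the totals (1.17) and without wild type replicate 2 (1.01). In these bulk libraries a higher level per cell and more cells with the miRNA cannot be told apart.

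The partner arm miR-29c-5p, normally the degraded strand of the same hairpin, had 207, 208 and 192 CPM in the ΔTUT4/7 libraries and 128, 110 and 122 CPM in the wild type libraries. Again the strains did not overlap. The means, 202.3 ± 9.20 CPM and 120.3 ± 9.13 CPM (SD over 3 libraries each), differed by 0.75 on the log2 scale (SE 0.16, 95% interval 0.41 to 1.09, edgeR adjusted p = 0.00207).

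The third arm that can only come from chromosome 1, miR-29b-2-5p, is the passenger strand of the miR-29b-2 hairpin and far less abundant. It was counted 174, 163 and 129 times in the ΔTUT4/7 libraries and 51, 84 and 59 times in the wild type libraries, or 34.3, 33.9 and 27.5 CPM against 11.6, 10.5 and 13.6 CPM. The lowest ΔTUT4/7 value, 27.5 CPM, was well above the highest wild type value, 13.6 CPM. This arm had the largest difference in the family, 1.43 on the log2 scale (SE 0.21, 95% interval 0.98 to 1.89, edgeR adjusted p = 1.81e-04), or 2.70-fold, and is the 1 arm of the 7 past the 2-fold limit, where 16.5% of all tested miRNAs were called higher.

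The arms made only on chromosome 7 overlapped between the strains and did not pass the test. miR-29a-3p, the guide arm of the miR-29a hairpin, had 2621, 2351 and 2053 CPM in the ΔTUT4/7 libraries. Its wild type values were 2532, 3234 and 2342 CPM. The strains overlapped, and wild type replicate 2 was the highest of the 6. Means of 2342 ± 284 CPM and 2703 ± 470 CPM (SD over 3 libraries each) corresponded to a log2 fold change of -0.21 (SE 0.15, 95% interval -0.54 to 0.13, edgeR adjusted p = 0.289). On the linear scale this interval runs from 0.686 to 1.09 times the wild type level, so it does not reach the increase of miR-29c-3p, whose own interval starts at 1.57 times. The sign of the difference depends on the scaling, as removing let-7 and miR-98 from the totals gave 0.017.

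miR-29a-5p, the degraded arm of the miR-29a hairpin, was at 18.7, 14.8 and 11.5 CPM in the ΔTUT4/7 and 14.1, 9.66 and 12.7 CPM in the wild type libraries, from 54 to 95 counts. With overlapping strains its log2 fold change was 0.32 (95% interval -0.22 to 0.87, edgeR adjusted p = 0.309). miR-29b-1-5p, the passenger strand of the other chromosome 7 hairpin, had 16.2, 21.0 and 16.6 CPM in the ΔTUT4/7 and 9.97, 13.2 and 22.6 CPM in the wild type libraries, from 44 to 105 counts. The highest value was that of wild type replicate 3 and the lowest that of wild type replicate 1. Its log2 fold change was 0.24 (95% interval -0.38 to 0.86, edgeR adjusted p = 0.511). Without wild type replicate 3 it was 0.61 (edgeR adjusted p = 0.0462). At these counts the intervals reach up to 1.83-fold for miR-29a-5p and 1.82-fold for miR-29b-1-5p.

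miR-29b-3p, the guide that both clusters supply, had 1702, 1772 and 1550 CPM in the ΔTUT4/7 libraries. The wild type libraries had 1200, 1342 and 2811 CPM. Wild type replicate 3 was more than 1.5 times the highest of the other 5 libraries, and the other wild type libraries were the lowest of the 6. The SD was 892 CPM around a mean of 1784 CPM in wild type and 114 CPM around 1675 CPM in ΔTUT4/7 cells (n = 3 each). The log2 fold change was -0.09 (SE 0.26, 95% interval -0.66 to 0.48, edgeR adjusted p = 0.796), and without wild type replicate 3 it was 0.40 (edgeR adjusted p = 0.0131). The direction for miR-29b-3p therefore rests on that library. miR-29b-1-5p, from the chromosome 7 hairpin, also had its highest CPM in it, at 22.6 CPM from 98 counts. miR-29b-2-5p, from the chromosome 1 hairpin, was at 13.6 CPM there and close to its other wild type values. The miR-29a arms, also from chromosome 7, were not raised in that library. There miR-29a-3p had its lowest wild type value, 2342 CPM, and miR-29a-5p, at 12.7 CPM, lay between its other wild type values. The source of the miR-29b-3p value in wild type replicate 3 was not tested.

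**Figure D2:**
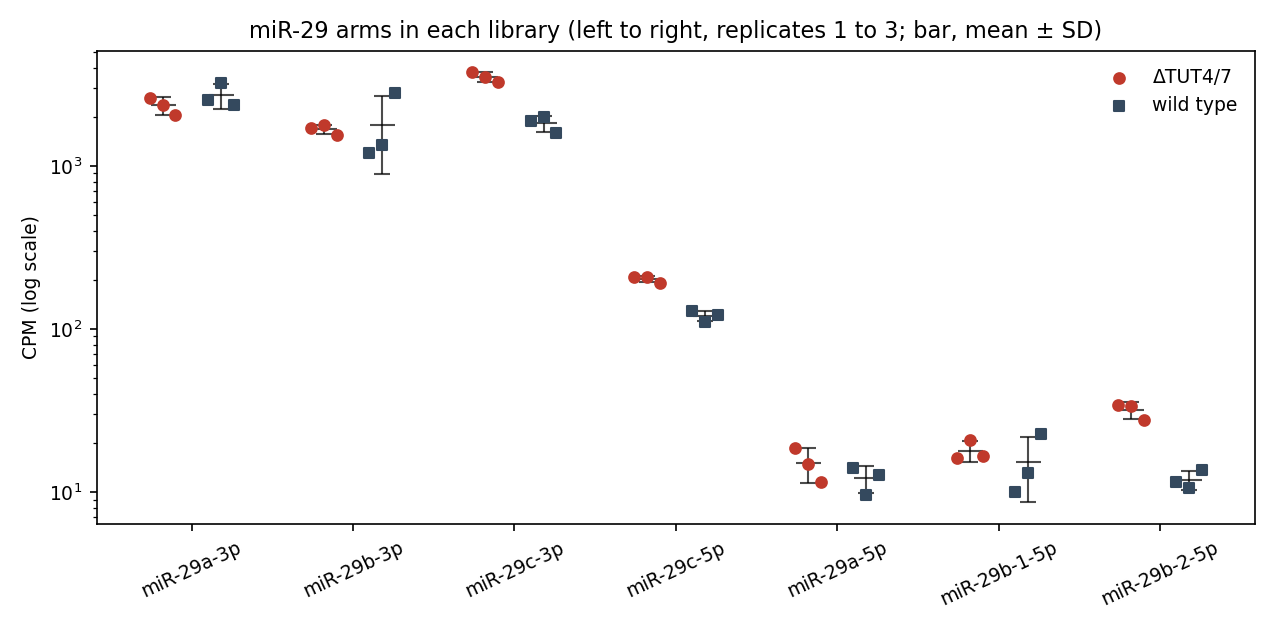
CPM (log scale) of the 7 miR-29 arms in the 3 ΔTUT4/7 libraries (red circles) and the 3 wild type libraries (dark squares), replicates 1 to 3 from left to right, with bars for the mean ± SD. miR-29c-3p, miR-29c-5p and miR-29b-2-5p are higher in every ΔTUT4/7 library, and the miR-29b-3p value of wild type replicate 3, 2811 CPM, lies above the other 5.

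The order of the 3 guide arms differed between the strains. In each ΔTUT4/7 library the order was miR-29c-3p, miR-29a-3p and miR-29b-3p, and the ranges of these arms did not overlap. In wild type cells miR-29a-3p was above miR-29c-3p in every library, and miR-29b-3p overlapped both, being the lowest of the 3 in replicates 1 and 2 and the highest in replicate 3. miR-29c-3p made up 46.4%, 45.9% and 47.3% of the counts of the 3 guides in the ΔTUT4/7 libraries and 33.6%, 30.2% and 23.5% in the wild type libraries. miR-29a-3p made up 30.0% to 32.5% and 34.8% to 49.3%. The 5p arms were minor in both strains, since the 3 guides held 96.5% to 96.7% of the counts of the 7 arms in ΔTUT4/7 and 97.2% to 97.9% in wild type cells. Levels of different miRNAs also carry the ligation and amplification preferences of the library kit, which were not measured here.

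With a common seed, the guides can also be taken as 1 pool. Together they had 8065, 7619 and 6844 CPM in the ΔTUT4/7 and 5626, 6555 and 6731 CPM in the wild type libraries. The strains did not overlap, but the nearest values were close, and the summed row, at 0.25 on the log2 scale (SE 0.12), did not pass the test (edgeR adjusted p = 0.108). Summing only miR-29b-3p and miR-29c-3p, which differ at base 18 of the trimmed read, gave 5444, 5268 and 4790 CPM against 3093, 3320 and 4389 CPM, which passed at 0.52 on the log2 scale (SE 0.15, edgeR adjusted p = 0.0122). A different division of reads between these arms would leave this sum as it is.

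**Figure D3:**
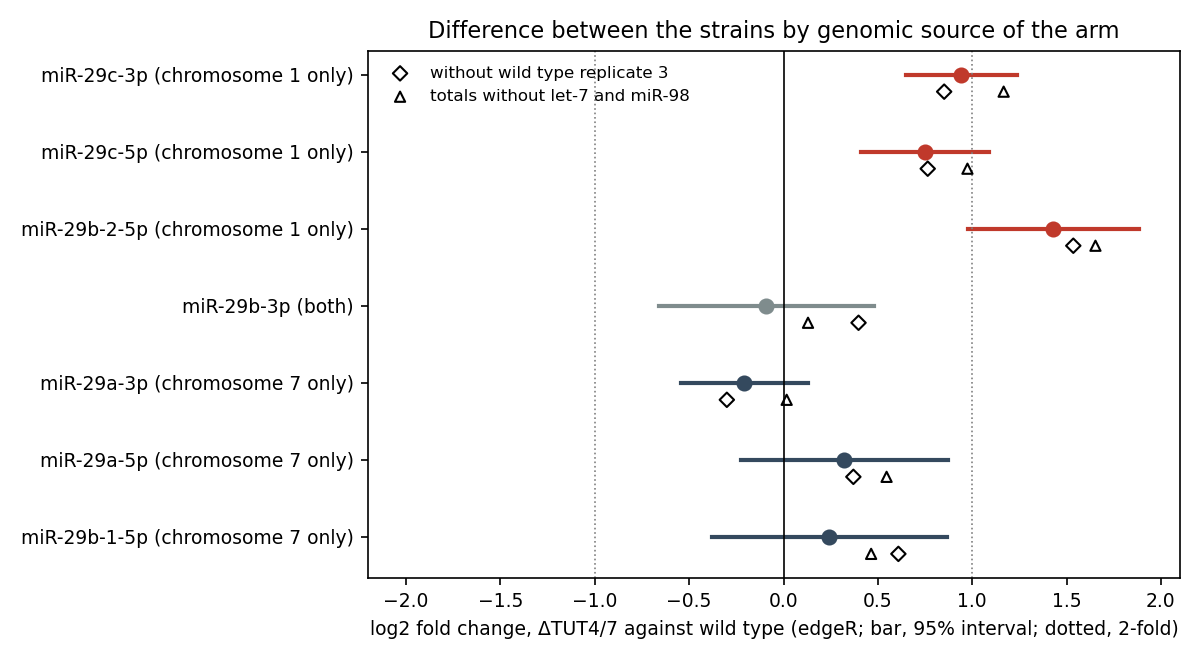
Log2 fold change of each arm in ΔTUT4/7 against wild type cells (edgeR, filled points with 95% intervals), grouped by the cluster that makes it, with the values without wild type replicate 3 (diamonds) and after removal of let-7 and miR-98 from the totals (triangles). The intervals of the 3 chromosome 1 arms lie above 0, from 0.41 upwards, while those of miR-29b-3p and of the 3 chromosome 7 arms include 0.

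Ratios between arms within a library do not depend on how libraries are scaled, and 8 of them were computed. With 3 libraries against 3, a 2-sided exact permutation test cannot give a p under 0.10, so none can pass 0.05. The ratio of miR-29c-3p to miR-29a-3p was 1.43, 1.49 and 1.58 in the ΔTUT4/7 libraries and 0.747, 0.612 and 0.674 in the wild type libraries. These do not overlap, and the geometric mean was 2.22 times higher in ΔTUT4/7 cells (log2 difference 1.15, exact permutation p = 0.10, adjusted p = 0.16 over the 8 ratios). With each library left out, the log2 difference ranged from 1.08 to 1.22. The spread between replicates on the log2 scale was an SD of 0.073 in ΔTUT4/7 and 0.14 in wild type cells (n = 3 each), far smaller than the difference.

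The passenger strands of the miR-29b hairpins gave a second comparison of the clusters. miR-29b-2-5p exceeded miR-29b-1-5p by 2.12, 1.61 and 1.65 times in the ΔTUT4/7 libraries, whereas the ratio was 1.16, 0.800 and 0.602 in the wild type libraries. The log2 difference was 1.11, or 2.16-fold, again without overlap (exact permutation p = 0.10, adjusted p = 0.16). With each library left out, it ranged from 0.89 without wild type replicate 3 to 1.36 without wild type replicate 1. The third comparison, miR-29c-5p to miR-29a-5p, ran from 11.1 to 16.6 in ΔTUT4/7 and from 9.13 to 11.4 in wild type cells. It overlapped, and its log2 difference of 0.46 had an exact permutation p of 0.20. That difference ranged from 0.32 to 0.61 with each library left out. In all 3 comparisons the mean ratio of chromosome 1 to chromosome 7 was higher in ΔTUT4/7 cells. Separation of the strains is common in these libraries, with 58.4% of the tested miRNAs separated by level, and the share among ratios of other miRNAs was not computed.

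miR-29b-3p was lower relative to miR-29c-3p in every ΔTUT4/7 library, at 0.455 to 0.507 against 0.634 to 1.78 in wild type cells (log2 difference -0.93, exact permutation p = 0.10). Without wild type replicate 3 the log2 difference was -0.45. Relative to miR-29a-3p it overlapped, at 0.649 to 0.755 against 0.415 to 1.20 (exact permutation p = 0.90). Against the sum of its 2 passenger strands, miR-29b-3p was at 33.7, 32.3 and 35.1 in the ΔTUT4/7 libraries and 55.7, 56.6 and 77.7 in the wild type libraries. That ratio was 1.86 times higher in wild type cells (log2 difference -0.89, exact permutation p = 0.10), and the ΔTUT4/7 libraries agreed closely, with an SD of 0.060 on the log2 scale.

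**Figure D4:**
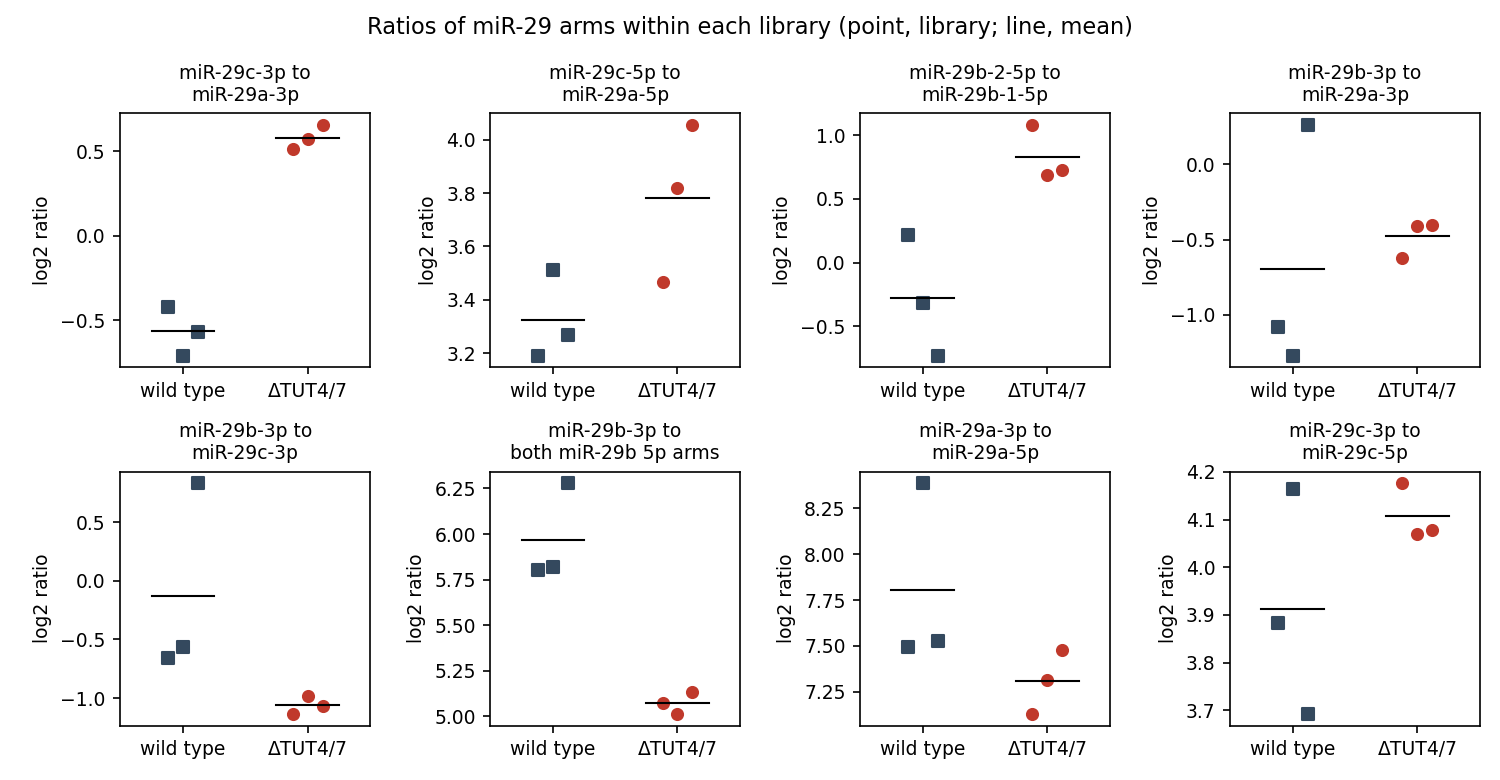
Log2 ratios of miR-29 arms within each library, with 1 panel per ratio, dark squares for wild type and red circles for ΔTUT4/7 libraries and a line for the mean of 3. The ratio of miR-29c-3p to miR-29a-3p is higher in every ΔTUT4/7 library, with a log2 difference of 1.15, and the ratio of miR-29b-3p to miR-29a-3p overlaps.

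The balance of the arms within a hairpin was compared with that of all hairpins. Of 200 hairpins with both arms tested under the same name, 33 (16.5%) had a changed ratio of 3p to 5p in limma with Benjamini-Hochberg adjustment, and neither miR-29a nor miR-29c was among them. The miR-29a hairpin has one of the highest ratios of 3p to 5p, rank 7 of 200 from the highest in both strains: its 3p arm exceeded the 5p arm by 140, 159 and 178 times in the ΔTUT4/7 and 180, 335 and 185 times in the wild type libraries. The strains did not overlap, but the ΔTUT4/7 replicate 3 and wild type replicate 1 values nearly met, and the log2 difference of -0.49 had a 95% interval of -1.13 to 0.14 (limma adjusted p = 0.276). It was -0.20 without wild type replicate 2, the library with the ratio of 335 (limma adjusted p = 0.617). In the miR-29c hairpin the 3p arm exceeded the 5p arm by 16.8 to 18.1 times in ΔTUT4/7 and 12.9 to 17.9 times in wild type cells. The log2 difference was 0.20 (95% interval -0.26 to 0.65, limma adjusted p = 0.574), and it ranged from 0.084 without wild type replicate 3 to 0.32 without wild type replicate 2. Arms were paired by name, and miR-29b was not among the 200, since its 5p arms are named by locus and its 3p arm is not. A name among the 200 can cover several hairpins, as for let-7a.

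**Figure D5:**
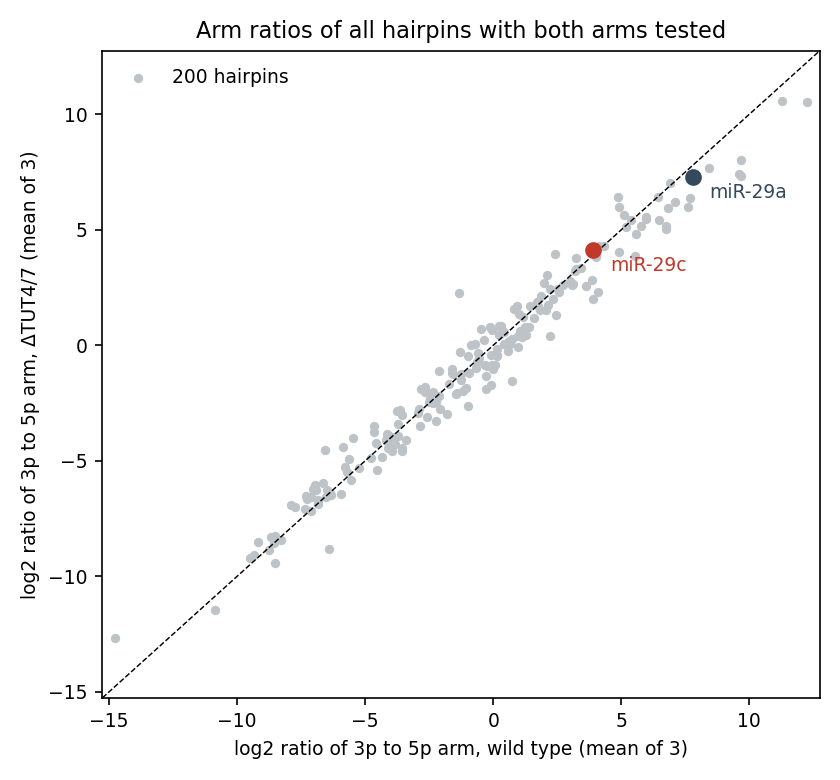
Log2 ratio of the 3p to the 5p arm in wild type (x axis) and ΔTUT4/7 cells (y axis), means of 3 libraries, for 200 hairpins (grey), with miR-29a and miR-29c coloured and a dashed line of equality. miR-29a lies at rank 7 from the highest ratio and miR-29c close to the line, with a difference of 0.20.

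Over the 6 libraries the arms made only on chromosome 1 followed each other closely. On the scale of log2(CPM + 1), Pearson's r was 0.99 for miR-29c-5p with miR-29b-2-5p, 0.95 for miR-29c-3p with miR-29c-5p and 0.94 for miR-29c-3p with miR-29b-2-5p. miR-29b-3p went with miR-29b-1-5p (0.88) more than with miR-29b-2-5p (0.17), and its r was -0.37 with miR-29a-3p and 0.15 with miR-29a-5p. The arms of miR-29a did not go together (-0.23). These are descriptions over 6 points that share the strain contrast and the library totals. Outside the family, 384 miRNAs above 10 CPM were compared. Those most like miR-29c-3p were miR-3144-3p, miR-651-5p and miR-22-5p (each 0.99), with log2 fold changes of 1.77, 4.36 and 0.84, a direction that follows from how they were chosen. miR-651-5p was above 10 CPM only in ΔTUT4/7 libraries, at 46.5 to 49.5 CPM against 0.922 to 3.14 CPM in wild type libraries. Those most like miR-29b-3p were miR-548b-3p, miR-324-5p and miR-32-3p (each 0.99). All of them had their highest value in wild type replicate 3, with 343, 922 and 172 CPM there against at most 206, 641 and 99.2 CPM in the other libraries. This peak also follows from how they were chosen, since miR-29b-3p itself was highest in that library. Those most like miR-29a-3p were miR-532-5p (0.91), miR-598-3p (0.89) and miR-660-5p (0.89), with log2 fold changes of -0.28, -0.28 and -0.20 that did not pass the test.

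miRNAs reported to be repressed by the transcription factor MYC, as miR-29 is, did not all go one way, and most of those that rose were let-7 members. Of 17 such miRNAs outside the family, 5 rose, 7 fell and 5 did not pass the test. Of all tested miRNAs, 23.2% rose and 21.9% fell. The median log2 fold change of the 17 was -0.05, beside 0.013 for all tested miRNAs. Of the 5 that rose, 4 were let-7a-5p, let-7d-5p, let-7f-5p and let-7g-5p, whose precursors are known substrates of TUT4 and TUT7, and the other was miR-497-5p (0.58, edgeR adjusted p = 0.00785). Among the 13 outside let-7, 1 rose and 7 fell, a split made after the values were seen, where 21.9% of all tested miRNAs fell. The highest was let-7d-5p at 4.27 (edgeR adjusted p = 1.34e-09) and the lowest miR-34a-5p, a p53 target, at -2.25 (edgeR adjusted p = 9.94e-09). miR-29c-3p, at 0.94, would come between let-7f-5p (1.39) and let-7a-5p (0.68). Of 5 other miRNAs known to target DNA or histone methyltransferases, 3 fell, where 21.9% of all tested miRNAs fell. The other 2 did not pass the test, and the median of the 5 was -0.38. The lowest was miR-152-3p at -2.43 (edgeR adjusted p = 5.46e-07), and the highest miR-101-3p at 0.46 (edgeR adjusted p = 0.124). miR-26a-5p, which belongs to both lists, fell by 0.38 on the log2 scale (edgeR adjusted p = 0.0112).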

How the data were processed

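miRNA libraries were made from total RNA with the QIAseq miRNA Library Kit. Reads cut to 18 nt were mapped by the authors to hg38 (Bowtie 1.0.0) and quantified on miRBase 22 in Partek Flow 10.0.22. The deposited values are estimated counts, all whole numbers, which the authors obtained by expectation maximization. The use of molecular identifiers is not stated. The authors' deposited comparison (p-values, fold changes and strain means) was not used. Libraries were grouped by their labels. CPM used the total count of 1000 miRNAs. Every miRNA that exceeded 7 counts in a library entered edgeR 4.0.16 (quasi-likelihood, normalization factors of 1, R 4.3.3). Arm ratios over hairpins used limma 3.58.1 on log2(count + 0.5). A miRNA or ratio passed at a Benjamini-Hochberg adjusted p under 0.05, and the 2-fold limit was applied in addition where stated. Exact permutation tests used scipy 1.17.1. DESeq2 1.42.0 was an alternative. The edgeR, DESeq2 and limma fits were checked on simulated counts. These were drawn with the same dispersion for all libraries, so the wider spread among the wild type libraries was not simulated. P-values of the fits judge the difference between the strains against the spread between replicate libraries of 1 strain each. Variation between separate knockout strains is not covered.

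The members, lists, tests and alternatives were chosen with earlier results of these data known. Named in full are the 5 members and both miR-29b 5p arms; for each guide, the 3 miRNAs above 10 CPM with the highest Pearson correlation over the 6 libraries; and the extremes of the 2 lists. Those lists and the cell markers came from general knowledge. let-7a-5p, let-7f-5p, let-7g-5p, miR-497-5p and miR-26a-5p were named after their values were seen. Alternatives were TMM and RLE factors, DESeq2, let-7 and miR-98 removed from the totals, limma-trend on log2(CPM + 1), no filter, filterByExpr, the replicate number as a block, each library left out, sums of guide arms and other pseudocounts. Target mRNAs and proteins were not analysed here.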

Additional observations from a re-analysis of the deposited data

How the results depend on the processing

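miR-29c-5p, miR-29b-2-5p and miR-29a-5p kept their direction and their side of the threshold under all alternatives, and miR-29c-3p did so in all but the sum of the 3 guides, where the pooled row (0.25) replaces it. That pooled value, and 0.52 for the sum of miR-29b-3p and miR-29c-3p, also replace the negative values of their members. After removal of let-7 and miR-98 from the totals, miR-29a-3p turned to 0.017 and miR-29b-3p to 0.13. This scaling moved the median of all tested miRNAs from 0.013 to 0.23, and relative to it miR-29c-3p was at 0.93 in both. It raised the share of higher among passing miRNAs from 51.5% to 65.5%. miR-29b-3p was 0.015 in limma-trend and 0.022 with the replicate block. With each library left out, log2 fold changes ranged from 0.85 to 1.01 for miR-29c-3p, 0.69 to 0.80 for miR-29c-5p, 1.34 to 1.54 for miR-29b-2-5p, -0.30 to -0.058 for miR-29a-3p, 0.13 to 0.48 for miR-29a-5p, -0.31 to 0.40 for miR-29b-3p and 0.025 to 0.61 for miR-29b-1-5p; the last 2 passed only without wild type replicate 3. The ratio of miR-29b-3p to miR-29a-3p ranged from -0.072 to 0.69 in log2 difference and turned without wild type replicate 2. The number of hairpins with a changed arm ratio went from 33 to between 5 and 45 with 1 library left out, and to 3 with the replicate block, while neither miR-29 hairpin passed in any fit. Under the replicate block the call of no arm changed. Same-numbered libraries did not deviate together (correlations of -0.17, -0.16 and -0.25), so the numbers are not taken as pairs. The causes of these changes were not tested. Depth limits the 5p arms other than miR-29c-5p, with 44 to 174 counts a library.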
